A study of Homo sapiens with 12 samples.

Results

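The 10 genes described here act in cystine import and glutathione synthesis (SLC7A11, GCLC, GCLM), in the repair of lipid peroxides (GPX4), in iron handling (TFRC, FTH1, FTL, HMOX1) and in the antioxidant response of the transcription factor NRF2 (NFE2L2, NQO1). They were chosen by name, with no threshold on their values, and are 10 of the 29696 genes listed in the expression table. A375 is an established human melanoma line, and the labels give the genotype of the cells as wild type. The cells were infected with a lentivirus that expressed a short hairpin RNA against ALKBH5, an enzyme that removes m6A from mRNA (shALKBH5), or with a control (shCtrl, called Scramble in the study's own text). Each group had 3 input libraries for expression and 3 libraries immunoprecipitated with an m6A antibody. The immunoprecipitated libraries entered here only as 1 deposited list of m6A peaks per group. Both groups carried a lentiviral vector, and the sources used here do not say which hairpin against ALKBH5 was in the sequenced cells. The question put to these genes was how their mRNA levels and m6A peaks differed between cells with reduced ALKBH5 and control cells.

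Ferroptosis is a form of cell death that follows iron-dependent peroxidation of membrane lipids. Cells hold it back by importing cystine, making glutathione from it and using glutathione to reduce lipid peroxides through the selenoprotein GPX4, while ferritin keeps iron in a form that does not drive peroxidation. NRF2, encoded by NFE2L2, is held low by KEAP1 and switches on many of these genes under oxidative stress, and melanoma cells in dedifferentiated states are known to be sensitive to the loss of GPX4.

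Expression was deposited as FPKM, fragments relative to the length of the transcript and to all mapped fragments, so levels can be compared between genes. Read counts were not used here, and the depth of each library is therefore unknown. The number of genes at 1 FPKM or more ran from 10624 to 10946 per library. Values are given in the order of replicates 1, 2 and 3 throughout. ALKBH5 was listed at 3.39, 3.92 and 3.12 FPKM in the shALKBH5 libraries against 19.3, 17.8 and 17.6 FPKM in the shCtrl libraries. All 3 shALKBH5 libraries were low and all 3 shCtrl libraries high, as the labels have it. The shALKBH5 mean was 19.1% of the shCtrl mean, and the log2 fold change was -2.36 (standard error, SE, 0.0887; limma with Benjamini-Hochberg correction gave an adjusted p of 1.28e-06). The fold changes here were taken on log2(FPKM + 0.1), a scale that understates the change of genes with low values. The study's methods say in general that experiments were repeated independently, but neither they nor the labels say whether these libraries came from separate cultures, so the p-values measure only the spread between these samples, which may be technical. In bulk RNA, fewer cells with a transcript and less transcript per cell cannot be told apart.

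Of the 10 genes, 5 were lower and 1 was higher in shALKBH5 cells, and 4 did not pass the test. GPX4 stood at 36.9% of its shCtrl mean, SLC7A11 at 48.4%, FTH1 at 58.4%, NQO1 at 60.5% and GCLC at 75.3%, while HMOX1 stood at 161%. GCLM, TFRC, FTL and NFE2L2 did not reach an adjusted p-value under 0.05. All 10 genes passed the filter of a mean of 0.5 FPKM over the 6 libraries. The count has to be read against a large background, since 7917 of the 12985 genes tested (61.0%) passed the same threshold, 34.7% as higher and 26.2% as lower. The groups did not overlap in 6 of the 10 genes, against 67.0% of all genes tested. The median log2 fold change was -0.25 over the 10 genes and 0.09 over all genes tested. At a filter of 1 FPKM, which SLC7A11 did not pass, the median of the other 9 was -0.11 and 5 were called. Over all genes, 4509 were higher and 3408 lower, and 3769 were higher and 3913 lower when each library was rescaled by its median ratio. The same 6 of the 10 genes kept their call and direction after this rescaling.

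**Figure D1:**
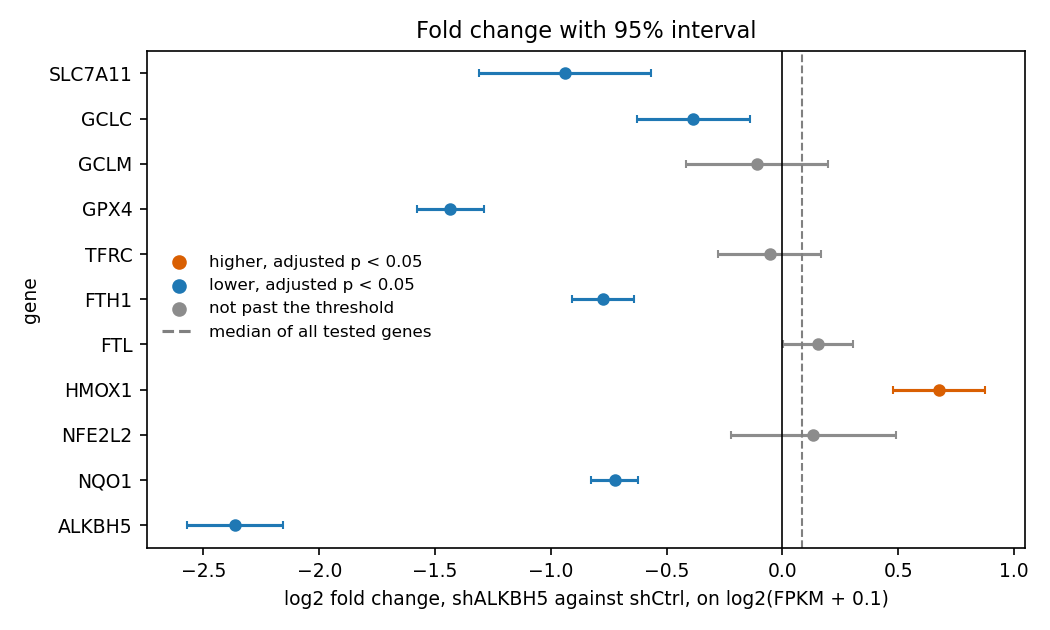
Log2 fold change of each of the 10 genes and of ALKBH5 in shALKBH5 against shCtrl cells, on log2(FPKM + 0.1), with bars for the 95% interval (3 input libraries per group) and colours for the result of the test. GPX4 lay farthest to the left of the 10 genes at -1.43, HMOX1 alone lay to the right past the threshold at 0.68, and the dashed line marks the median of all genes tested, 0.09.

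The plot of fold changes shows the spread among the 10 genes. Of all genes tested, 3.10% had a lower log2 fold change than GPX4, 7.37% had a lower one than SLC7A11, 9.95% than FTH1 and 10.9% than NQO1. GCLC lay less far out, with 20.4% of genes below it. HMOX1 lay on the other side, with 87.6% of genes below it.

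SLC7A11 (ENSG00000151012, chromosome 4, 138164097 to 138242349, minus strand, genome build not named) encodes the subunit of the cystine/glutamate antiporter that carries cystine into the cell. It was listed at 0.679, 0.527 and 0.480 FPKM in the shALKBH5 libraries against 1.16, 1.27 and 1.05 FPKM in the shCtrl libraries. Every shALKBH5 value was below every shCtrl value, and the level was low in both groups. The group means were 0.562 ± 0.104 and 1.16 ± 0.107 FPKM (SD, n = 3 each), which gave a log2 fold change of -0.94 (SE 0.159, adjusted p = 0.00160). With a pseudocount of 1 it was -0.47, still past the threshold. SLC3A2, the heavy chain of the same antiporter, was far more abundant, at 58.5, 58.4 and 58.1 FPKM in shALKBH5 and 63.7, 54.5 and 56.7 FPKM in shCtrl cells. The shALKBH5 values of SLC3A2 lay inside the range of the shCtrl values, with a log2 fold change of 0.00 (adjusted p = 0.956). Its sign turned to -0.07 after rescaling.

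GCLC (ENSG00000001084, chromosome 6, 53497341 to 53616970, minus strand) is the catalytic subunit of glutamate-cysteine ligase, the rate-limiting enzyme of glutathione synthesis. Its values were 1.68, 1.53 and 1.53 FPKM in the shALKBH5 libraries and 1.88, 2.33 and 2.08 FPKM in the shCtrl libraries. The groups did not overlap, but the highest shALKBH5 value came close to the lowest shCtrl value. GCLC fell by 0.38 on the log2 scale (SE 0.104, adjusted p = 0.0144), the smallest of the 6 called differences. GCLM (ENSG00000023909, chromosome 1, 93885199 to 93909456, minus strand) is the modifier subunit of the same enzyme, and its values were 1.55, 1.32 and 1.33 FPKM in shALKBH5 and 1.60, 1.69 and 1.28 FPKM in shCtrl cells. The lowest of these 6 values belonged to a shCtrl library, so the groups overlapped. The log2 fold change of GCLM was -0.11 (95% interval -0.42 to 0.20, adjusted p = 0.499). With libraries left out in turn it ran from -0.22 to -0.03, and after rescaling it was -0.18, never past the threshold. Within each library, GCLC over GCLM, a ratio chosen after its values were seen, was 1.09, 1.16 and 1.15 in shALKBH5 and 1.18, 1.38 and 1.63 in shCtrl cells. The shALKBH5 ratios were all lower, and the highest of them nearly met the lowest shCtrl ratio (two-sided exact permutation p = 0.1, the minimum that 3 against 3 libraries allow). On the log2 scale the ratios differed by -0.29, and by -0.17 without shCtrl replicate 3. Whether GCLC and GCLM differed in their response was not tested otherwise. GSS, which completes glutathione synthesis, was listed at 16.8, 17.8 and 17.0 FPKM in shALKBH5 and 16.7, 14.5 and 15.4 FPKM in shCtrl cells. The highest shCtrl value of GSS lay just under the lowest shALKBH5 value. Its log2 fold change was 0.15 (adjusted p = 0.0642), and without shCtrl replicate 1 it was 0.20 (adjusted p = 0.0130), while after rescaling it was 0.07 (adjusted p = 0.433).

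GPX4 (ENSG00000167468, chromosome 19, 1103926 to 1106791, plus strand) is the selenoprotein that reduces phospholipid hydroperoxides and so blocks ferroptosis. It was listed at 24.4, 22.2 and 24.7 FPKM in the shALKBH5 libraries against 68.8, 60.9 and 63.5 FPKM in the shCtrl libraries. All 3 shALKBH5 libraries were far below all 3 shCtrl libraries, and the gap was many times the spread within a group. The group means were 23.8 ± 1.36 and 64.4 ± 4.06 FPKM (SD, n = 3 each). GPX4 had the largest difference of the 10 genes, with a log2 fold change of -1.43 (95% interval -1.58 to -1.29, SE 0.0619, adjusted p = 2.18e-06). With each library left out in turn it stayed between -1.47 and -1.38.

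Promoter sequences were matched by symbol in a RefSeq table (GRCh38.p14) for 7 of the 10 genes, in 10 windows, and no entry was matched for SLC7A11, FTH1 and HMOX1. The windows of GCLC, GCLM and GPX4 are shown, and they were chosen after the values of these genes were seen. Whether a motif goes with a change in level was not tested. Each is the stretch of 250 bases before a transcript start, printed 5' to 3' on the strand of the gene. Capitals mark matches to the CCAAT box (CCAAT), the TATA box (TATAAA) or the core of the antioxidant response element that NRF2 binds (TGACNNNGC), searched on both strands, where ATTGG is CCAAT and GCTTAGTCA is the element core read on the opposite strand. Of 35116 promoter windows of the same length, 32.0% held CCAAT, 10.7% held TATAAA and 10.9% held TGACNNNGC. The GCLC window is chr6:53545102-53545351, minus strand, with CCAAT from -134 to -130 and TATAAA from -29 to -24 relative to the start. The GCLM window is chr1:93909431-93909680, minus strand, with the element core from -34 to -26. The GPX4 window, the first of 3 in the table, is chr19:1103744-1103993, plus strand, with CCAAT on the opposite strand from -105 to -101 and on the same strand from -62 to -58. The second GPX4 window, which overlaps the first, held 3 matches, all to the CCAAT box, and these include the matches of the first window. The third window held 0 matches.
GCLC promoter: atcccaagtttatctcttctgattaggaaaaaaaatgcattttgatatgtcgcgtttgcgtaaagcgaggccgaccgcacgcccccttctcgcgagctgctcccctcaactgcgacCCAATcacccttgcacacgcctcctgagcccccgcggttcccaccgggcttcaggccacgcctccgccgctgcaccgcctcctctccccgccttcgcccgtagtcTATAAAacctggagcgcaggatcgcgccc
GCLM promoter: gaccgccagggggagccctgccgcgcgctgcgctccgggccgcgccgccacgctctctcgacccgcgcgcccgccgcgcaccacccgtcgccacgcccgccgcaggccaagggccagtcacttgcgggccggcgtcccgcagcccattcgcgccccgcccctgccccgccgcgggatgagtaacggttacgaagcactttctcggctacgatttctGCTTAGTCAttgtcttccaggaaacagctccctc
GPX4 promoter: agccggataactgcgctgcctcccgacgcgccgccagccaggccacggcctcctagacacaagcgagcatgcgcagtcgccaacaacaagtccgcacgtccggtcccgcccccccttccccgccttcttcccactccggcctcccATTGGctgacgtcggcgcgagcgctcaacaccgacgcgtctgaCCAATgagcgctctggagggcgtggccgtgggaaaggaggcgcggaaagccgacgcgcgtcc
A match describes the letters only, and binding was not measured here. Sequence farther than 250 bases before a start was not searched. A window without a match therefore does not show that a gene lacks the element.

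**Figure D2:**
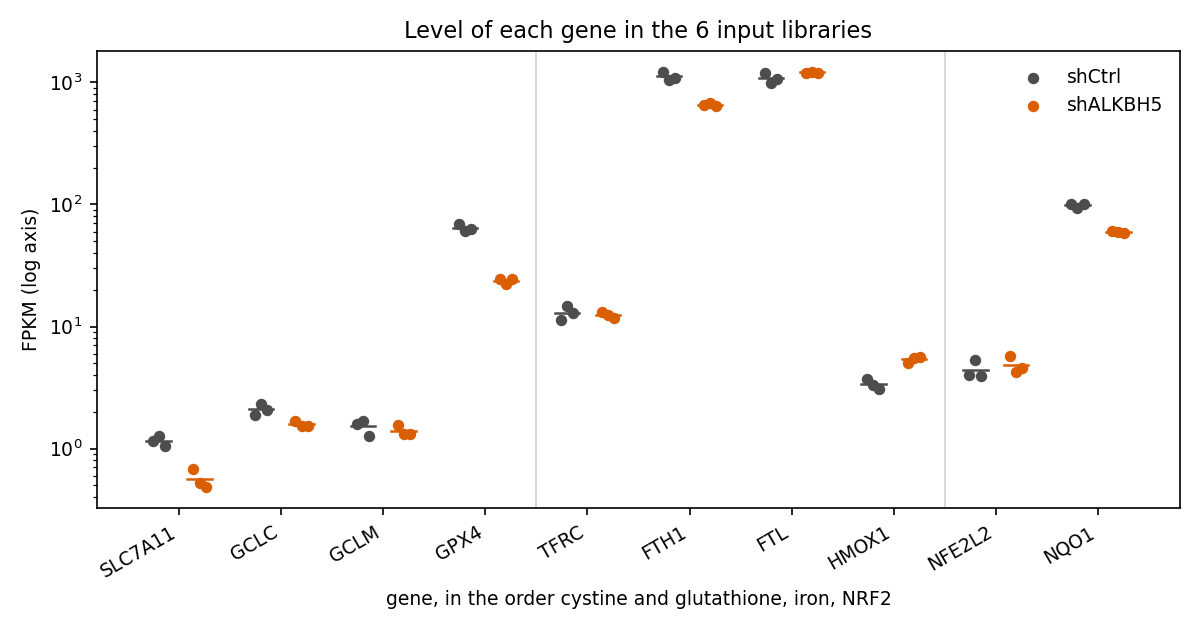
FPKM of the 10 genes on a log axis in the 6 input libraries, with 1 point per library, short lines for the mean of 3 libraries, shCtrl in grey and shALKBH5 in orange, and grey verticals between cystine and glutathione, iron and NRF2 genes. FTH1 and FTL were the most and SLC7A11 the least abundant, and the points of the groups were farthest apart for GPX4 (68.8 to 60.9 against 24.7 to 22.2 FPKM).

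The plot of levels also shows the iron genes. TFRC (ENSG00000072274, chromosome 3, 196027183 to 196082096, minus strand) is the transferrin receptor that brings iron into the cell. Its values were 13.2, 12.4 and 11.6 FPKM in shALKBH5 and 11.4, 14.6 and 12.9 FPKM in shCtrl cells. The shALKBH5 values lay inside the range of the shCtrl values, whose replicate 2 was the highest and replicate 1 the lowest of all 6. The log2 fold change was -0.05 (95% interval -0.28 to 0.17, adjusted p = 0.647), and without shCtrl replicate 2 it turned to 0.04 (adjusted p = 0.727), while after rescaling it was -0.13 (adjusted p = 0.212).

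FTH1 (ENSG00000167996, chromosome 11, 61959718 to 61967634, minus strand) is the heavy chain of ferritin, which oxidises iron for storage. It was listed at 648, 674 and 645 FPKM in the shALKBH5 libraries against 1218, 1053 and 1097 FPKM in the shCtrl libraries. The groups stood far apart, and the shALKBH5 libraries also varied less among themselves. The group means were 655 ± 15.8 and 1123 ± 85.4 FPKM (SD, n = 3 each), which gave a log2 fold change of -0.77 (95% interval -0.91 to -0.64, adjusted p = 2.43e-05). FTH1 made up 0.290 to 0.302% of all FPKM in the shALKBH5 libraries and 0.495 to 0.556% in the shCtrl libraries. FTL (ENSG00000087086, chromosome 19, 48965309 to 48966879, plus strand) is the light chain, and it was listed at 1192, 1228 and 1200.5 FPKM in shALKBH5 and at 1193, 994 and 1076 FPKM in shCtrl cells. Of the shCtrl libraries, replicate 1 reached the shALKBH5 values and replicates 2 and 3 were lower. The log2 fold change of FTL was 0.15 (SE 0.0645, adjusted p = 0.0726), and without shCtrl replicate 1 it was 0.22 (adjusted p = 0.00490). After rescaling it was 0.08 (adjusted p = 0.448). The mRNAs of both ferritin chains carry an iron responsive element near the start, a stem and loop through which iron regulatory proteins block translation when iron is low. The loop letters CAGTGN were found in the first 50 bases of the FTL transcript, 39 to 44 bases from the start, and on the transcript strand in 6.36% of the RefSeq windows. The site is chr19:48965329-48965358 of GRCh38.p14, plus strand, in the transcribed part of FTL, with the loop letters in capitals.
FTL site: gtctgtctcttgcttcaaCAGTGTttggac

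The difference between the ferritin chains could be read within each library, where scaling between libraries cancels. This ratio was chosen after its values were seen. FTH1 over FTL was 0.543, 0.548 and 0.537 in shALKBH5 replicates 1, 2 and 3 and 1.02, 1.06 and 1.02 in the shCtrl libraries. The chains were near equal in FPKM in all shCtrl libraries, and FTH1 was well below FTL in all shALKBH5 libraries. The mean ratios were 0.543 ± 0.00565 (SD, n = 3) and 1.03 ± 0.0230 (SD, n = 3) (two-sided exact permutation p = 0.1, again the minimum). Both values are uncertain to the extent that reads were shared with near-identical pseudogenes, which was not tested. The table listed 15 FTH1 pseudogenes, of which 9 were tested, and all 9 were lower in shALKBH5 cells, against 26.2% of all genes tested. With the replicate block or with no trend 8 of the 9 were called, and 7 or 8 with libraries left out in turn. Without any filter 7 of the 15 were called. Together the FTH1 pseudogenes held 48.0 FPKM in shALKBH5 and 79.8 FPKM in shCtrl cells on average, or 6.87 to 7.63% of FTH1 in a library. FTH1P2 was the most abundant, at 14.4 and 23.4 FPKM (log2 fold change -0.70, adjusted p = 0.00119). The 3 listed FTL pseudogenes summed to at most 0.159% of FTL, and the 1 tested among them did not pass the test. These pseudogenes were looked up after the values of the ferritin genes were seen.

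**Figure D3:**
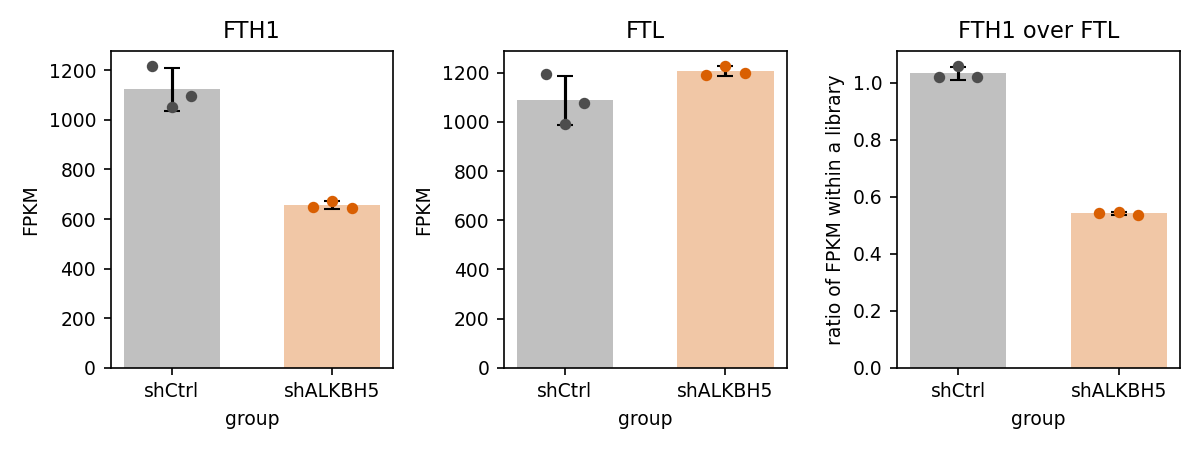
FPKM of FTH1 and of FTL and the ratio of FTH1 over FTL within a library, for shCtrl (grey) and shALKBH5 (orange) cells, with bars for the mean of 3 input libraries, whiskers for the SD and 1 point per library. FTH1 fell from 1123 to 655 FPKM, FTL overlapped between the groups, and the ratio was 1.02 to 1.06 in shCtrl and 0.537 to 0.548 in shALKBH5 libraries.

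HMOX1 (ENSG00000100292, chromosome 22, 35380361 to 35394207, plus strand) encodes heme oxygenase, which breaks down heme and releases its iron. It was listed at 5.07, 5.57 and 5.59 FPKM in shALKBH5 and at 3.69, 3.30 and 3.06 FPKM in shCtrl cells. Every shALKBH5 value was above every shCtrl value, the reverse of the 5 lower genes. HMOX1 rose from 3.35 ± 0.317 to 5.41 ± 0.297 FPKM (SD, n = 3 each), with a log2 fold change of 0.68 (95% interval 0.48 to 0.88, adjusted p = 0.000343). Among other iron genes, NCOA4, which delivers ferritin to lysosomes, was listed at 27.7, 29.9 and 25.2 FPKM in shALKBH5 and 19.9, 26.9 and 24.5 FPKM in shCtrl cells. The groups of NCOA4 overlapped (log2 fold change 0.23, adjusted p = 0.126), with shCtrl replicate 2 the highest of its group, and without that library the value was 0.32 (adjusted p = 0.0408), against 0.10 without shCtrl replicate 1 and 0.15 after rescaling. SLC40A1, the iron exporter ferroportin, stood at 0 FPKM in each shALKBH5 library and at 0, 0.00936 and 0 FPKM in shCtrl cells, below the filter. Of the iron regulatory proteins, ACO1 was listed at 6.93, 7.78 and 7.11 FPKM in shALKBH5 and 6.14, 6.46 and 5.88 FPKM in shCtrl cells. The groups of ACO1 did not overlap (log2 fold change 0.24, adjusted p = 0.0170). The call did not hold after rescaling (0.16, adjusted p = 0.0791), nor without shALKBH5 replicate 2 (0.19, adjusted p = 0.0634) or shCtrl replicate 3 (0.20, adjusted p = 0.0628). IREB2 was listed at 3.20, 2.85 and 3.27 FPKM in shALKBH5 and 2.42, 3.30 and 2.49 FPKM in shCtrl cells. Its shCtrl replicate 2 was the highest value of all 6 and the other shCtrl values were the lowest (log2 fold change 0.19, adjusted p = 0.236). Without that library the value was 0.33 (adjusted p = 0.0175), against 0.11 without shCtrl replicate 1 or after rescaling.

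NFE2L2 (ENSG00000116044, chromosome 2, 177227595 to 177392697, minus strand) encodes NRF2 itself. Its values were 5.75, 4.21 and 4.55 FPKM in shALKBH5 and 4.00, 5.32 and 3.90 FPKM in shCtrl cells. Each group held 1 high library and the groups overlapped, with a log2 fold change of 0.13 (95% interval -0.22 to 0.49, adjusted p = 0.475). With libraries left out in turn it ran from 0.01 (without shALKBH5 replicate 1) to 0.27 (without shCtrl replicate 2), and after rescaling it was 0.06, never past the threshold. NQO1 (ENSG00000181019, chromosome 16, 69706996 to 69726668, minus strand) is a quinone reductase widely used as a readout of NRF2. It was listed at 61.0, 60.0 and 58.6 FPKM in the shALKBH5 libraries against 102, 93.9 and 101 FPKM in the shCtrl libraries. The groups were far apart beside the spread within each. NQO1 fell from 98.9 ± 4.38 to 59.9 ± 1.22 FPKM (SD, n = 3 each), with a log2 fold change of -0.72 (95% interval -0.82 to -0.62, adjusted p = 9.32e-06). The NQO1 window of 250 bases before the start, chr16:69726561-69726810 on the minus strand of GRCh38.p14, is shown beside those of GCLC, GCLM and GPX4. It held none of the 3 promoter motifs in these letters and so has no capitals. Only these 250 bases were searched, so an antioxidant response element of NQO1 farther from the start would have been missed.
NQO1 promoter: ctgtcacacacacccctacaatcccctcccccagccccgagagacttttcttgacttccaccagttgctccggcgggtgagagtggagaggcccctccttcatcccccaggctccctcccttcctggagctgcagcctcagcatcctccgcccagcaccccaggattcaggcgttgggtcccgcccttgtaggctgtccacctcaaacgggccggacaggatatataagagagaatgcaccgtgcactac

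Of the regulators of NRF2, KEAP1, BACH1 and SQSTM1 were given whatever their values, and MAFK, MAFG and BTRC for the size of their change. KEAP1, which targets NRF2 for degradation, was listed at 27.4, 27.8 and 27.8 FPKM in shALKBH5 and 26.9, 25.1 and 26.2 FPKM in shCtrl cells. The values lay close together although the groups did not overlap (log2 fold change 0.09, adjusted p = 0.101), and without shCtrl replicate 1 the value was 0.11 (adjusted p = 0.0386). After rescaling it was 0.01. BACH1, a repressor at the same DNA elements, was listed at 1.66, 1.41 and 1.88 FPKM in shALKBH5 and 1.86, 2.41 and 1.83 FPKM in shCtrl cells. These ranges overlapped (log2 fold change -0.29, adjusted p = 0.125), and without shCtrl replicate 2 the value was -0.16. SQSTM1, an autophagy receptor that binds KEAP1, was listed at 79.1, 80.9 and 83.5 FPKM in shALKBH5 and 72.1, 61.3 and 65.5 FPKM in shCtrl cells. It rose in all 3 shALKBH5 libraries above every shCtrl library (log2 fold change 0.29, adjusted p = 0.00445). This is mRNA, whereas the study reported lower SQSTM1 protein by western blot in A375 cells after ALKBH5 knockdown. The small MAF proteins pair with NRF2 on DNA, and of the 3 MAFK and MAFG rose to 312% and 261% of their shCtrl means while MAFF stood at 83.4%. MAFK was at 7.87, 8.10 and 8.66 FPKM in shALKBH5 and 2.89, 2.57 and 2.44 FPKM in shCtrl cells (log2 fold change 1.61, adjusted p = 3.78e-06). MAFG was at 20.2, 18.1 and 19.7 FPKM in shALKBH5 and 7.33, 7.40 and 7.57 FPKM in shCtrl cells (log2 fold change 1.37, adjusted p = 1.59e-06). In both genes every shALKBH5 library was far above every shCtrl library. MAFF, added after its values were seen, was at 4.05, 4.67 and 4.54 FPKM in shALKBH5 and 5.93, 4.93 and 5.04 FPKM in shCtrl cells, with no overlap (log2 fold change -0.25, adjusted p = 0.0443). The call of MAFF did not hold without any filter, with the replicate block or with no trend, and with libraries left out in turn it held only without shCtrl replicate 2 (adjusted p = 0.0365). BTRC, an adaptor of a ubiquitin ligase that acts on NRF2, went the other way, from 4.49, 5.31 and 5.08 FPKM in shCtrl to 1.65, 1.65 and 1.60 FPKM in shALKBH5 cells (log2 fold change -1.54, adjusted p = 5.50e-06).

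Ordered by level, FTH1 and FTL led in shCtrl cells with ranges that overlapped each other, followed by NQO1, GPX4, TFRC, NFE2L2, HMOX1, GCLC, GCLM and SLC7A11. In that order of shCtrl means, all neighbours other than FTH1 and FTL had ranges apart. In shALKBH5 cells FTL led alone, followed by FTH1, NQO1, GPX4 and TFRC. HMOX1 came next, above NFE2L2, but the ranges of HMOX1 and NFE2L2 overlapped, as did those of GCLC and GCLM. SLC7A11 was the least abundant of the 10 genes in both groups. Averaged over the 6 libraries, FTL was at the 99.98th and SLC7A11 at the 61.7th percentile of all listed genes.

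The other genes of these pathways were taken from 11 lists written by function, with 154 genes in all. No value was analysed here for 6 of them (GPX7, TFR2, FTMT, HEPH, ALOX12 and ALOX15), 17 were below the filter, and 131 were tested. In shALKBH5 cells 39 of the tested genes had higher and 39 had lower levels, and the median log2 fold change was 0.03 against 0.09 over all genes tested. After rescaling, 26 were higher and 45 lower, so the balance of directions depended on the scaling. The called share, 59.5%, was close to the 61.0% of all genes. Genes named in the accounts of these lists, other than those the naming rule covers, were chosen after their values were seen.

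**Figure D4:**
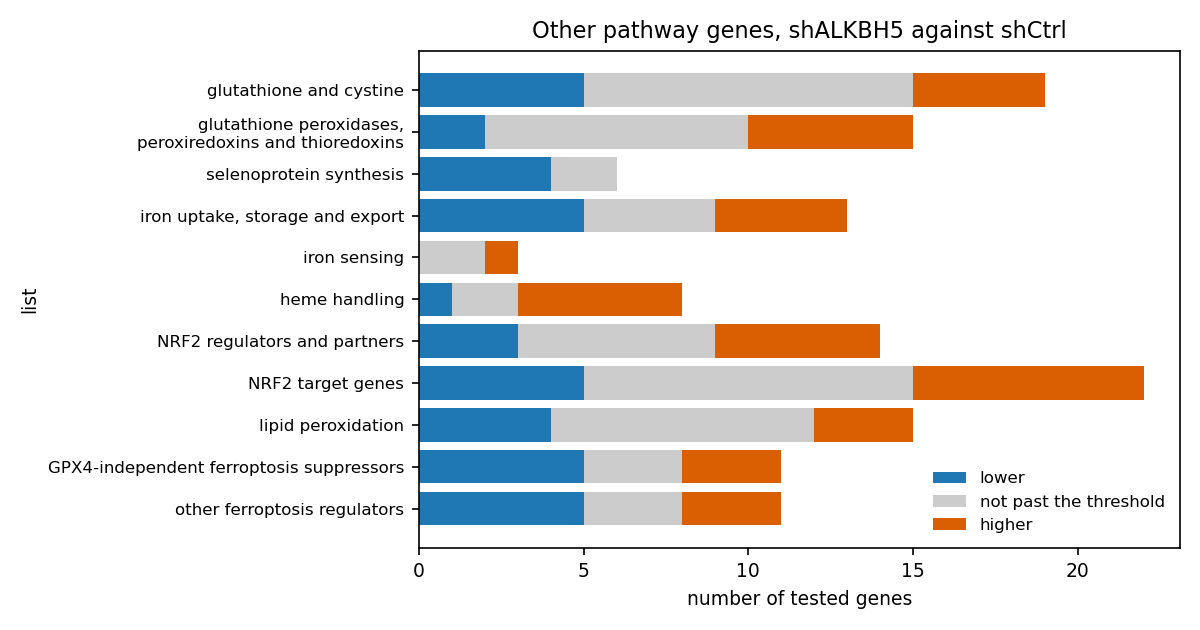
Number of tested genes in each of the 11 pathway lists that were lower (blue), higher (orange) or not past an adjusted p-value of 0.05 (grey) in shALKBH5 against shCtrl input libraries (3 per group). Selenoprotein synthesis had 4 lower and 0 higher of 6 genes, and heme handling had 1 lower and 5 higher of 8.

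The plot of lists shows both directions in 9 of the 11 lists. Among genes of glutathione and cystine metabolism, 4 of 19 tested were higher and 5 lower (median 0.00). After rescaling 1 was higher and 6 lower. With the replicate block, or without shALKBH5 replicate 2 or 3, 1 was higher and 4 lower. CBS, which makes cystathionine on the way from methionine to cysteine, was at 1.42, 1.35 and 1.51 FPKM in shALKBH5 and 2.94, 3.18 and 3.02 FPKM in shCtrl cells. It fell in all 3 shALKBH5 libraries (log2 fold change -1.05, adjusted p = 3.25e-05). CHAC1, which degrades glutathione, had a mean of 2.13 FPKM in shALKBH5 and 4.19 FPKM in shCtrl cells, with groups that did not overlap (log2 fold change -0.94, adjusted p = 4.94e-05). Of the other glutathione peroxidases, the peroxiredoxins and the thioredoxins, 5 of 15 were higher and 2 lower (median 0.06). TXNRD1, thioredoxin reductase, was at 16.8, 18.4 and 16.0 FPKM in shALKBH5 and 15.3, 19.2 and 18.8 FPKM in shCtrl cells. The groups overlapped (log2 fold change -0.05, adjusted p = 0.665), and without shCtrl replicate 2 the sign turned (0.01, adjusted p = 0.955), while after rescaling it was -0.13 (adjusted p = 0.244). TXN2, the mitochondrial thioredoxin, rose from 46.9 ± 2.57 to 79.7 ± 2.62 FPKM (SD, n = 3 each; log2 fold change 0.76, adjusted p = 1.47e-05), with every shALKBH5 library above every shCtrl library.

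GPX4 contains selenocysteine, and of the genes of selenoprotein synthesis and selenium supply 0 of 6 tested were higher and 4 lower (median -0.20). The 2 below the filter, PSTK (0.480 and 0.357 FPKM in shALKBH5 and shCtrl cells) and SELENOP (0.0493 and 0.0256 FPKM), were higher without overlap and not tested. EEFSEC, the elongation factor for selenocysteine, was at 5.03, 5.25 and 5.09 FPKM in shALKBH5 and 8.06, 8.26 and 7.98 FPKM in shCtrl cells. The groups of EEFSEC lay far apart (log2 fold change -0.65, adjusted p = 3.18e-05). Of the genes of iron uptake, storage and export, 4 of 13 were higher and 5 lower (median 0.07), and 5 higher and 4 lower without shCtrl replicate 2. PCBP1, a chaperone that hands iron to ferritin, fell from 223 ± 9.82 to 153 ± 3.56 FPKM (SD, n = 3 each; log2 fold change -0.54, adjusted p = 3.35e-05), without overlap of the groups. Of the 3 iron sensing genes, 1 was higher, ACO1, and 0 lower (median 0.19), and 0 were called without shALKBH5 replicate 2 or shCtrl replicate 3 and 2 without shCtrl replicate 2. Heme handling had 5 of 8 higher and 1 lower (median 0.32), beside the rise of HMOX1. ALAS1, which starts heme synthesis, rose from 42.0 ± 1.04 to 56.3 ± 1.56 FPKM (SD, n = 3 each; log2 fold change 0.42, adjusted p = 7.80e-05) with no overlap.

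Of the regulators and partners of NRF2, 5 of 14 tested were higher and 3 lower (median 0.08), with MAFK and MAFG among the higher and MAFF and BTRC among the lower ones. Of the other target genes of NRF2, 7 of 22 were higher and 5 lower (median 0.06), so they moved in both directions, as HMOX1 and NQO1 did. The balance was not stable, with 3 higher and 6 lower after rescaling and 4 higher and 5 lower without shALKBH5 replicate 2. OSGIN1, 1 of the 7 higher genes, passed the filter only through its shALKBH5 values (0.866 and 0.473 FPKM). CBR3, a carbonyl reductase, had the largest difference of the targets, at 1.81, 1.93 and 1.45 FPKM in shALKBH5 and 7.83, 6.95 and 6.35 FPKM in shCtrl cells. Every shALKBH5 value of CBR3 was far below the shCtrl values (log2 fold change -1.97, adjusted p = 1.13e-05). ABCC2, an export pump, rose from 7.16 ± 0.814 to 12.5 ± 0.572 FPKM (SD, n = 3 each; log2 fold change 0.79, adjusted p = 0.000181), and all 3 shALKBH5 libraries were above all shCtrl libraries. Among genes of lipid peroxidation, 3 of 15 were higher and 4 lower (median 0.00), and 2 higher and 6 lower after rescaling. ACSL4 activates polyunsaturated fatty acids for their later insertion into phospholipids and so favours ferroptosis. ACSL4 was at 1.52, 1.22 and 1.40 FPKM in shALKBH5 and 2.71, 3.30 and 2.46 FPKM in shCtrl cells. It was lower in every shALKBH5 library (log2 fold change -0.98, adjusted p = 0.000500). SCD, which makes monounsaturated fatty acids, fell from 129 ± 7.80 to 74.1 ± 3.58 FPKM (SD, n = 3 each, log2 fold change -0.79, adjusted p = 2.05e-05), again without overlap. MBOAT1, of the same list, went the other way, from a mean of 0.874 FPKM in shCtrl to 1.67 FPKM in shALKBH5 cells. Its groups did not overlap either (log2 fold change 0.87, adjusted p = 0.000827).

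Suppressors of ferroptosis that do not need GPX4 had 3 of 11 higher and 5 lower (median -0.07), and 5 were called in all without shALKBH5 replicate 1 or 3 or shCtrl replicate 3. AIFM2, also called FSP1, reduces coenzyme Q at membranes, and was at 6.07, 6.05 and 6.17 FPKM in shALKBH5 and 5.64, 4.93 and 5.05 FPKM in shCtrl cells. All shALKBH5 values were the higher ones (log2 fold change 0.22, adjusted p = 0.0201). The call did not hold after rescaling (0.15, adjusted p = 0.133). With libraries left out in turn it held without shCtrl replicate 1 (0.28, adjusted p = 0.00394), and without any of the other 5 the value was 0.19 to 0.23 with an adjusted p from 0.0506 to 0.0694. Other regulators of ferroptosis had 3 of 11 higher and 5 lower (median -0.01). YAP1, a transcriptional coactivator of the Hippo pathway, was at 8.00, 7.53 and 6.79 FPKM in shALKBH5 and 18.4, 21.9 and 20.5 FPKM in shCtrl cells. TFAP2C, a transcription factor, was at 9.56, 10.4 and 10.5 FPKM in shALKBH5 and 22.6, 24.1 and 22.0 FPKM in shCtrl cells. In both, all shALKBH5 libraries were far below all shCtrl libraries, with log2 fold changes of -1.43 (adjusted p = 8.94e-06) for YAP1 and -1.17 (adjusted p = 3.73e-06) for TFAP2C. PTGS2, whose mRNA is often measured as a marker of ferroptosis, was at 0.823, 0.859 and 1.30 FPKM in shALKBH5 and 0.102, 0.167 and 0.141 FPKM in shCtrl cells. It rose without overlap, but from values near the pseudocount and with a mean that passed the filter only through its shALKBH5 values (log2 fold change 2.19, adjusted p = 0.000176), and across the alternatives that gave a value the log2 fold change ran from 0.80 to 2.77. Without shALKBH5 replicate 3, its highest library, PTGS2 did not pass the filter and had no value, and it had none at a filter of 1 FPKM.

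The m6A peaks of the 10 genes came from 1 list per group, so no difference between the lists has a replicate check, and coordinates are those of the lists, whose genome build is not named. The shALKBH5 list held 23 peaks in 8 of the 10 genes and the shCtrl list held 20 peaks in the same 8, with none in GCLM or FTL. Of all genes tested, 86.0% and 85.5% had a peak, with a median of 2 per gene in each list. At a deposited FDR of at most 0.05, 17 of the 23 and 19 of the 20 peaks remained. The share of all peaks that passed this limit is not given here, so nothing is read from these counts. By the deposited annotation, 10 shALKBH5 peaks lay in the 5' and 10 in the 3' untranslated region, 1 in another exon and 2 in introns, against 11, 8, 0 and 1 in shCtrl cells. Peak spans include introns, so some are far longer than the RNA they cover. Of the 23 shALKBH5 peaks 19 shared at least 1 bp with a shCtrl peak of the same strand, and 19 of the 20 shCtrl peaks did so with a shALKBH5 peak. These shares moved when both peaks had to overlap by 50%, to 11 of 23 and 11 of 20. Shares over all peaks of the lists are not given here, and whether the 10 genes differ from other genes in this was not tested.

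**Figure D5:**
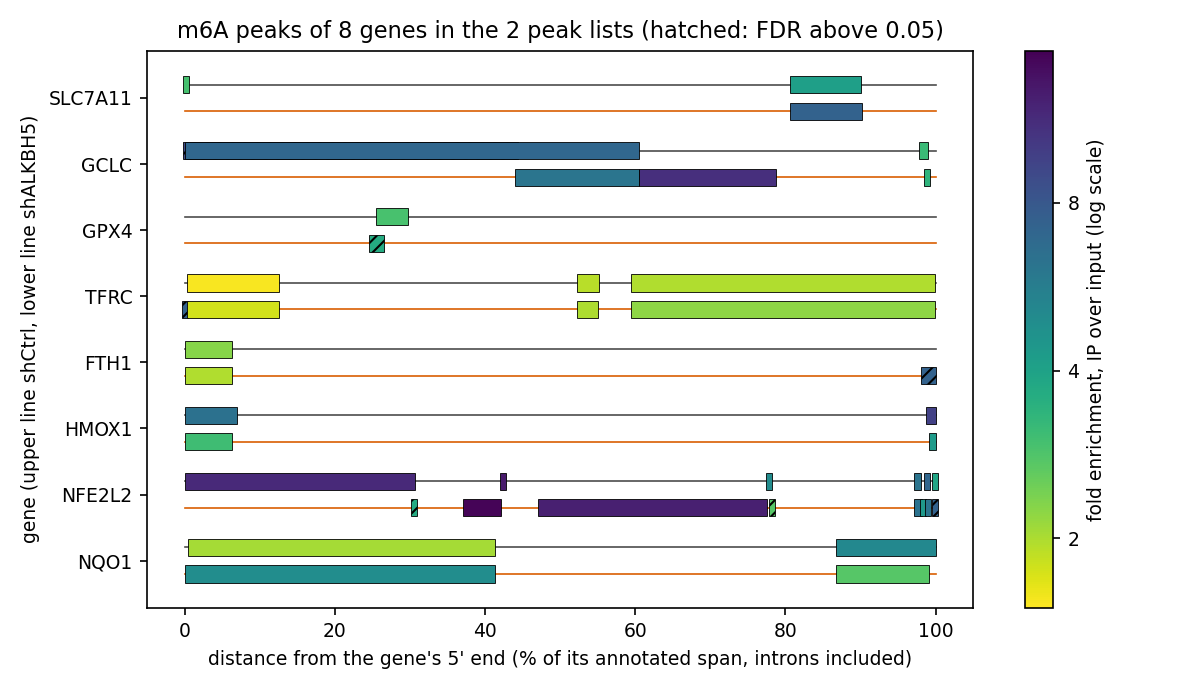
Position of the m6A peaks of 8 genes along the annotated gene, from the 5' end at 0% to the 3' end at 100%, introns included, with shCtrl on the upper and shALKBH5 on the lower line of each gene. Colour gives the deposited fold enrichment of IP over input on a log scale and hatching an FDR above 0.05, and the 2 peaks of HMOX1 and of NQO1 lie at the same ends in both lists with different enrichment.

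In the map of peaks, 17 pairs of peaks overlapped each other and no further peak. Of these, 11 had the higher fold enrichment in shALKBH5 cells and 6 in shCtrl cells, with a median ratio of 1.06. Over 22939 such pairs within the same gene in the whole lists, 45.8% were higher in shALKBH5 cells and the median ratio was 0.97, with quartiles of 0.787 and 1.23 and outer deciles of 0.565 and 1.75. SLC7A11 had a 3' untranslated peak in both lists, from 138171734 to 138179293 in shALKBH5 and from 138171824 to 138179293 in shCtrl cells. Its deposited fold enrichment was 7.35 in shALKBH5 and 4.13 in shCtrl cells, a ratio of 1.78, above that of 90.5% of all pairs. The log10 FDR of this peak was weaker in shALKBH5 cells, at -6.59 against -13.8. The same value of 7.35 was listed for shALKBH5 peaks of TFRC, FTH1 and NFE2L2 with an FDR above 0.05. The SLC7A11 input was also low, at a mean of 0.562 FPKM in shALKBH5 cells, so the ratio is uncertain. A 5' peak of SLC7A11 (138242139 to 138242349, fold enrichment 2.95) was only in the shCtrl list. HMOX1 went the other way at both ends, with a fold enrichment of 3.06 in shALKBH5 and 6.38 in shCtrl cells at its 5' end. At its 3' end the values were 4.29 and 9.58. These ratios, 0.480 and 0.448, were below those of all but 6.83% and 5.82% of pairs.

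NQO1 differed between its ends. Its 5' peak had a fold enrichment of 4.90 in shALKBH5 and 2.05 in shCtrl cells (ratio 2.39), and its 3' peak 2.76 and 5.11 (ratio 0.540). The 5' ratio lay above 95.0% of all pairs, and the 3' ratio above 8.95% of them. GPX4 had 1 peak in each list, from 1104628 to 1104688 in shALKBH5 and from 1104658 to 1104777 in shCtrl cells, which shared 31 bp. Both lay in the part annotated as 5' untranslated, with fold enrichments of 3.67 and 2.94, and the log10 FDR of the shALKBH5 peak was -0.955, above an FDR of 0.05. FTH1 had the same 5' peak of 505 bp in both lists, at 1.97 in shALKBH5 and 2.27 in shCtrl cells. A 3' peak of FTH1 was only in the shALKBH5 list, with an FDR above 0.05. TFRC had 3 pairs with ratios of 1.04 to 1.14, and a further peak at its 5' end (196081976 to 196082096, fold enrichment 7.35) was only in the shALKBH5 list, with an FDR above 0.05. GCLC had 3 peaks in each list, of which the 2 shCtrl peaks at its 5' end overlap each other and are drawn on top of each other in the map. Its 3' pair stood at 3.36 in shALKBH5 and 3.16 in shCtrl cells. NFE2L2 had the most peaks of the 10 genes, 8 in shALKBH5 and 6 in shCtrl cells, and its main 3' peak stood at 6.32 and 6.21. At an FDR of at most 0.05 the gene kept 5 peaks in shALKBH5 and 6 in shCtrl cells. Its 6 pairs also held the lowest and highest ratio of the 10 genes, 0.319 (3.67 and 11.5) and 2.46 (12.2 and 4.95), above 2.53% and 95.4% of all pairs. In the first the peaks spanned 239 and 50649 bp, with the FDR of the shALKBH5 peak above 0.05, and in the second 50360 and 1031 bp. The pair nearest the 3' end stood at 7.35 and 3.83 (ratio 1.92), also with the FDR of the shALKBH5 peak above 0.05. A further 3' peak of NFE2L2, from 177230364 to 177230543, had a fold enrichment of 4.36 in shALKBH5 cells and no partner in the shCtrl list. That peak and the 5' peak of NQO1 (69718532 to 69726609) were the entries of the 10 genes in the deposited table of 6513 differential peaks, where 32.7% of all genes tested have an entry. So 2 of the 10 genes were in that table, and whether the peaks and the mRNA levels of these genes are linked was not tested.

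Marker lists were read to check the cells and their state, and their part in the values of the 10 genes was not tested. Of 8 melanocyte markers, MLANA was not analysed here, 4 (PMEL, TYR, TYRP1 and DCT) were below the filter, and 2 of the 3 tested, S100B and MITF, were higher. PMEL stood at 0.611 and 0.237 FPKM without overlap, and TYR and DCT were near 0. The groups of MITF overlapped (log2 fold change 0.63, adjusted p = 0.0475), and its call did not hold after rescaling (0.56, adjusted p = 0.0576), when any 1 of 4 of the libraries was left out, without any filter, with the replicate block or with no trend. The summed level of the melanocyte markers was 265, 267 and 262 FPKM in shALKBH5 and 225, 217 and 214 FPKM in shCtrl cells. SOX10 was the most abundant, at 181 and 184 FPKM, and did not pass the test, and S100B rose from 32.9 to 82.1 FPKM. All 6 markers of undifferentiated melanoma fell, although SOX9 and EGFR passed the filter only through their shCtrl values, and their sum was 401, 415 and 408 FPKM in shALKBH5 and 949, 930 and 944 FPKM in shCtrl cells. VIM led that list at 256 and 703 FPKM, and NGFR had its largest change, from 34.7 to 5.66 FPKM (log2 fold change -2.59, adjusted p = 2.40e-07). Keratinocyte markers summed to 11.5, 11.2 and 10.7 FPKM in shALKBH5 and 9.53, 8.90 and 8.97 FPKM in shCtrl cells. KRT10 led at 10.8 and 8.17 FPKM, and of the 2 tested KRT10 was higher and KRT14 lower, though KRT14 passed the filter only through its shCtrl values. TP63 was near 0, and KRT5, KRT1 and DSG3 were not analysed here. Fibroblast markers summed to 4.31, 3.18 and 3.65 FPKM in shALKBH5 and 2.24, 2.35 and 2.20 FPKM in shCtrl cells, mostly LUM (2.61 and 1.16 FPKM), which rose as 1 of the 2 tested. Below the filter, DCN was higher (0.291 and 0.187 FPKM) and PDGFRA (0.242 and 0.422 FPKM) and COL1A2 (0.0158 and 0.0499 FPKM) lower, each without overlap. Of the immune markers PTPRC and CD3E were not analysed here, and LYZ and CD68 both rose. Their sum was 42.7, 46.6 and 46.5 FPKM in shALKBH5 and 17.6, 18.0 and 15.6 FPKM in shCtrl cells, with CD68 leading at 40.4 and 16.2 FPKM. Endothelial markers summed to 4.03, 4.24 and 3.75 FPKM in shALKBH5 and 2.33, 2.64 and 2.53 FPKM in shCtrl cells, and the rise was that of KDR (3.76 and 2.16 FPKM), the 1 tested. VWF was lower without overlap (0.222 and 0.301 FPKM, below the filter), and PECAM1 and CDH5 were near 0. Mitochondrially encoded RNAs, read as a sign of RNA handling, summed to 410, 413 and 456 FPKM in shALKBH5 and 384, 432 and 451 FPKM in shCtrl cells. MT-CO1 led them at 129 and 122 FPKM, the sums overlapped, and of the 7 tested 1 was higher (MT-CO2, adjusted p = 0.0373) and 2 lower. The call of MT-CO2 did not hold after rescaling (0.21, adjusted p = 0.0764), when any 1 shALKBH5 replicate was left out, without any filter or with no trend.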

How the data were processed

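The 6 input libraries and the peak lists of the immunoprecipitated libraries were grouped by their labels. The authors deposited expression as FPKM, and per peak a fold enrichment (the ratio of IP to input) and log10 p and log10 FDR, which the deposited lists give as a score. The aligner, counter, peak caller and genome build are not given in the sources used here, and the labels list mm10, a mouse build that cannot be that of human genes. Depth is unknown. The authors' comparison columns (fold changes, p- and q-values of expression, and log2 fold changes, p-values and FDR of differential peaks) were not used.

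Genes that averaged 0.5 FPKM or more were tested on log2(FPKM + 0.1) with lmFit and eBayes (trend) of limma 3.58.1 in R 4.3.3, two-sided, with Benjamini-Hochberg adjustment over 12985 genes and a threshold of 0.05. The study's methods name edgeR, which models counts, and counts were not used here. The scripts were tested on simulated data. Python 3.11.15, pandas 2.3.3, numpy 2.4.6, scipy 1.17.1 and matplotlib 3.10.9 were used elsewhere. No 2 libraries were copies of each other, and low FPKM showed no steps that would reveal counts (most common ratio 0.743% and 1.02% of low values). Peak starts, which count from 0, were changed to count from 1.

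The 10 genes and the lists were chosen with earlier results of these data known. The text names ALKBH5, the 10 genes, KEAP1, BACH1, SQSTM1, SLC3A2, GSS, TXNRD1, AIFM2, ACSL4, NCOA4, SLC40A1, IREB2 and ACO1, and each gene of the pathway lists past the threshold with an absolute log2 fold change of at least 1, at least 1 FPKM in the higher group and no overlap. One of the listed markers is not reported here. The results of the genes above, of other genes named for their change, of the FTH1 pseudogenes, of the markers past the threshold and of each list were repeated with a pseudocount of 1 or 0.01, with a filter at 1 FPKM or none, after median ratio rescaling, with a replicate block, with eBayes but no trend, and with each library left out in turn. Ratios within a library were repeated only with libraries left out, and level sums and orders were not repeated. Peaks were repeated with stricter limits (fold enrichment of at least 2 and FDR of at most 0.01), with a reciprocal overlap of 50% and on either strand. Sequences within peaks were not analysed here.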

Additional observations from a re-analysis of the deposited data

How the results depend on the processing

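Over all alternatives, 1116 values kept their direction and side of the threshold (counts stayed within 1.5 times, medians within the spread), 24 moved, 31 lost and 5 gained the threshold, and 5 reversed. The cause was not tested unless the alternative itself shows it. With libraries left out in turn, the genes called ran from 6874 to 7833, those among the 10 genes from 6 to 7, their median from -0.31 to -0.17, pathway genes called from 65 to 77 and ALKBH5 from -2.45 to -2.29. FTL ran from 0.091 to 0.22 (past the threshold without shCtrl replicate 1, adjusted p = 0.00490) and TFRC from -0.14 to 0.035 (reversed without shCtrl replicate 2, adjusted p = 0.727). SLC3A2 ran from -0.042 to 0.069 (reversed without shCtrl replicate 2 or 3, and at -0.074 after rescaling) and TXNRD1 from -0.16 to 0.0073 (reversed without shCtrl replicate 2). The filter at 1 FPKM left SLC7A11, PTGS2 (also lost without shALKBH5 replicate 3), HFE, EGFR, SOX9 and KRT14 without a value and moved the median of the other 9 of the 10 genes to -0.11. Shared peaks moved from 19 of 23 and 19 of 20 to 11 of 23 and 11 of 20 at a reciprocal overlap of 50%, and to 10 of 12 and 10 of 14 with stricter peaks. Called genes in the lists moved for glutathione and cystine (9 to 5), iron sensing (1 to 0 or 2) and GPX4-independent suppressors (8 to 5). So did melanocyte (2 to 1), keratinocyte (2 to 1) and fibroblast (1 to 2) markers. Among the genes repeated singly, the lost calls were those of AIFM2, ACO1, MAFF, MITF and MT-CO2. Genes counted only within lists also lost calls, and the FTH1 pseudogenes called ran from 7 to 9.

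With the replicate block, 7271 genes were called (4142 higher) and 6 of the 10, the same ones. Same-numbered libraries did not deviate together (correlations of 0.02, -0.05 and 0.06) and not every library correlated best with its own number, so the numbers were not read as pairs.

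The 3 libraries per group and the unknown depth limit the precision, above all for SLC7A11, GCLC and GCLM at about 2 FPKM or less and for genes near the pseudocount. Peaks have 1 list per group and no replicate check.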
